A study of Danio rerio with 6 samples.

Results

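The ABCG genes of the zebrafish were followed through sorted fractions of acute lymphoblastic leukaemia (ALL), in which lymphocyte precursors accumulate. They were taken by symbol (abcg2a, abcg2b, abcg2c, abcg2d, abcg1, abcg4a and abcg4b), and all 7 were present among the 29095 genes of each count table. Each of 3 tumours, numbered 1404, 1279 and 1314, was sorted by flow cytometry into a side population (SP) and a non-side population (nonSP), and each fraction gave 1 RNA-seq library, so that 6 libraries form 3 pairs (n = 3 in each fraction). All libraries came from leukaemic tissue of the strain CG2, with no treatment. The oncogene behind the tumours, the dye and gate of the sort, the age of the fish and the number of fish per tumour are not given in the labels. Values are listed below for tumours 1404, 1279 and 1314 in that order.

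ABCG proteins carry a nucleotide-binding domain and a membrane-spanning domain, and must pair with a second ABCG protein to form a working pump. Mammalian ABCG2, also named breast cancer resistance protein, exports the DNA-binding dye Hoechst as well as many drugs, porphyrins and urate, and dye export of this kind defines the side population of bone marrow. Zebrafish have several genes related to mammalian ABCG2, of which abcg2a, abcg2b, abcg2c and abcg2d were counted here. ABCG1 and ABCG4 move sterols out of cells, and ABCG5 and ABCG8 together export plant and animal sterols from liver and gut in mammals. No sequence of these genes was used here.

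Library totals ranged from 30213658 to 62398607 counts. Of all genes, 15770 had enough counts to be tested, and 3530 of them (22.4%) differed between the fractions of a tumour, 2047 (13.0%) higher and 1483 (9.40%) lower in SP (quasi-likelihood test of edgeR blocked by tumour, Benjamini-Hochberg adjusted p below 0.05). Over all tested genes the log2 fold change had a median of 0.09 with TMM scaling, a method that sets the bulk of genes equal, and of 1.15 with library totals alone, where 50.8% were called higher and 1.76% lower. The TMM factors were 1.21 to 1.76 in SP and 0.587 to 0.817 in nonSP, with no overlap. Values in CPM, counts scaled to a common library size, are TMM-scaled unless library totals are named, and all differences are relative to that scaling. Lymphocyte genes were present in both fractions. The 6 T cell markers found in the tables summed to 89.4, 707 and 64.3 CPM in SP and 144, 978 and 172 CPM in nonSP, and the 7 B cell markers to 104, 1.76 and 52.7 CPM against 106, 2.71 and 61.4 CPM. Of 6 T cell markers tested 0 rose and 1 fell (rag2, -1.45 ± 0.38), and of 5 B cell markers 1 rose (blnk, 1.31 ± 0.46) and 0 fell. blnk had 0 CPM in both libraries of tumour 1279, so its call rests on tumours 1404 and 1314. With DESeq2, limma voom or any tumour left out, no B cell marker was called higher. Without tumour 1314 no T cell marker was called lower. The TMM-scaled sums of both lists were lower in SP in 3 of 3 tumours, that of the B cell markers by little in tumour 1404. Tumour 1279 had few counts on B cell markers. The direction of both lists depends on the scaling. With library totals the median log2 fold change of the tested T cell markers was 0.51, beside -0.57 with TMM. The median of the tested B cell markers was 0.87, beside -0.09. With library totals 1 marker of each list was called higher and 0 lower, beside 50.8% and 1.76% of all tested genes. The T cell list holds rag1 and rag2, recombinase genes that B cell precursors also express, so it is not specific to T cells. In tumour 1279 rag1 and rag2 stood at 215 and 69.1 CPM in SP and 340 and 209 CPM in nonSP. Among the other genes of that list, lck was lower in SP of tumour 1279 (log2 ratio -0.27). There zap70 and cd8a were higher (0.40 and 0.46) and itk was about equal (0.04). In tumour 1404 lck and itk were lower in SP (-1.59 and -0.84), cd8a was higher (0.58) and zap70 about equal (0.01). In tumour 1314 lck, zap70 and itk were lower (-0.81, -1.17 and -2.86), and cd8a had almost no counts. Of 5 neutrophil markers tested 1 rose (mpx, 3.33 ± 0.47) and 0 fell. mpx stood at 37.3, 3.54 and 3.12 CPM in SP and 2.77, 0.846 and 0.176 CPM in nonSP. The list summed to 630, 20.3 and 30.2 CPM in SP and 252, 17.2 and 29.1 CPM in nonSP. That was higher in SP in 3 of 3 tumours, but by little in tumours 1279 and 1314. The neutrophil genes lyz and cpa5 had too few counts to be tested. Counts of lyz were 1, 2 and 2 in SP beside 0, 24 and 2 in nonSP, and those of cpa5 0, 0 and 0 beside 11, 1 and 0. Of 8 blood stem and progenitor markers tested 4 rose (tal1, prom1b, fgd5a and kitb) and 0 fell. The number called higher was 3 of 8 without tumour 1404, 2 of 9 without tumour 1279 and 3 of 9 without tumour 1314. The shares of all tested genes called higher in those fits were 7.85%, 8.37% and 7.0%. The list had sums of 89.5 to 335 CPM in SP and 59.1 to 184 CPM in nonSP, again higher in 3 of 3. Most of each sum was myb, at 156.5, 317 and 58.5 CPM in SP, which was not called (edgeR adjusted p = 0.0711). Among the 4 not called, lmo2 had a negative log2 fold change (-0.48 ± 0.47), with lower levels in SP of tumours 1279 and 1314. Those of myb, kita and gata2a were positive. The sums of the erythroid, macrophage, endothelial and thrombocyte markers were each higher in SP in 1 of 3 tumours, while among their single genes slc4a1a (erythroid, 1.60 ± 0.43) and flt4 (endothelial, 3.09 ± 1.0) rose and tek (endothelial, -1.52 ± 0.47) fell. flt4 stood at 0, 0.0564 and 0.0662 CPM in nonSP and had enough counts for a test through its SP libraries only, so its call carries no weight of its own. Without tumour 1314 no erythroid marker was called higher and 1 was called lower. Without tumour 1404 or 1279 no endothelial marker was called in either direction. Of the intestine and liver markers tfa rose (2.36 ± 0.56). The sums reached 15.2 CPM at most for neuron markers and 5.10 CPM for those of intestine and liver. The vessel marker kdrl had 1 count in all, and the thrombocyte markers itga2b and mpl had 0 in each library. In sorted bulk RNA, fewer cells of a type and less RNA per cell cannot be told apart, and the part of the neutrophil and progenitor markers in the ABCG results was not tested.

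Of the ABCG genes, 5 passed the filter on low counts and 2 of these rose in SP, abcg2a and abcg4a, beside 13.0% of all tested genes, while 0 fell, beside 9.40%. The paralogue abcg2d and the sterol exporter gene abcg1 were higher in SP in 3 of 3 tumours without passing the test, abcg2c was lower in SP in 3 of 3 tumours without passing it, and abcg2b and abcg4b had too few counts to be tested. The filter asked for about 0.182 CPM in at least 3 libraries. abcg4a met it in 3 SP and 0 nonSP libraries and abcg1 in 3 SP and 1 nonSP library. The count of members that passed the filter and the call of abcg4a therefore carry no weight of their own.

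abcg2a, the paralogue with the most counts of the 7 (2928 over all libraries), stood at 18.7, 10.4 and 6.24 CPM in SP and 6.86, 3.16 and 1.08 CPM in nonSP. It was higher in SP within each tumour, and the tumours kept the same order in both fractions, with 1404 highest and 1314 lowest. The groups overlapped, since the nonSP library of tumour 1404 (95% counting interval 6.10 to 7.69 CPM) lay at the level of the SP library of tumour 1314 (5.75 to 6.76 CPM). The log2 fold change was 1.88 ± 0.40 (SE, n = 3, edgeR adjusted p = 0.00193), or 3.69-fold. By fold it ranked 902 among the 2047 rising genes and by p 612 among the 15770 tested. The spread between tumours was wide, with means of 11.8 ± 6.32 CPM in SP and 3.70 ± 2.93 CPM in nonSP (SD, n = 3), and without tumour as a block the gene did not pass (1.67 ± 0.80, edgeR adjusted p = 0.654).

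**Figure D1:**
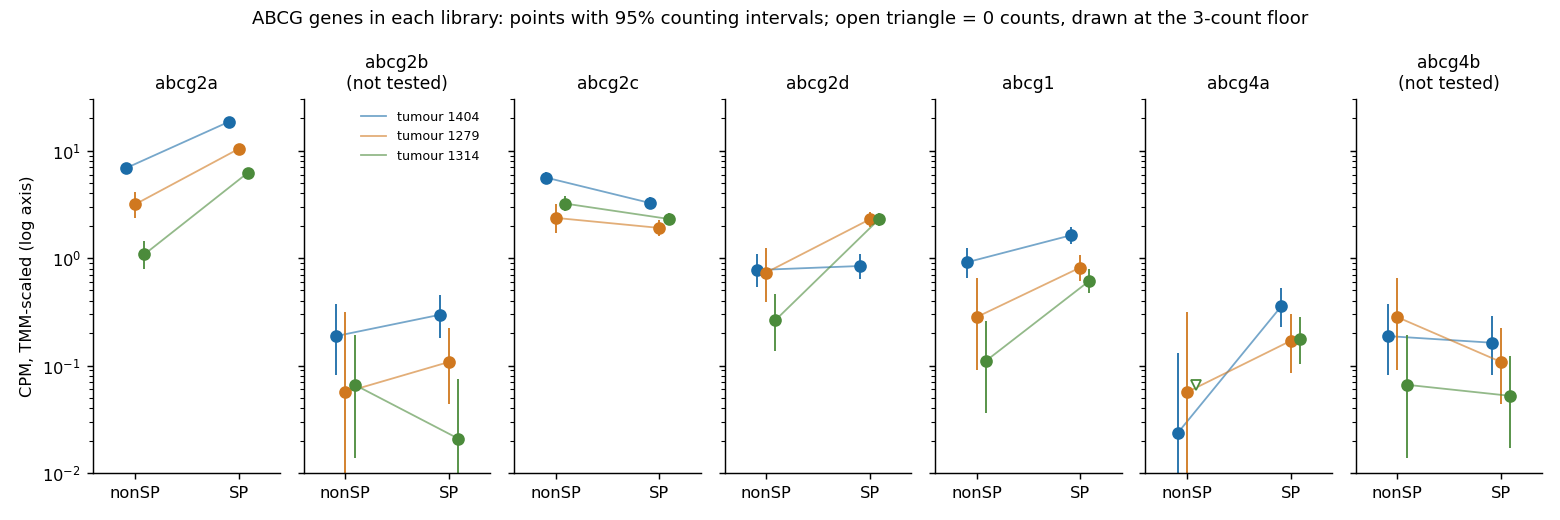
Level of each ABCG gene in CPM (TMM-scaled, log axis) in the nonSP and SP library of tumours 1404 (blue), 1279 (orange) and 1314 (green), 1 point per library with its 95% counting interval; lines join the fractions of a tumour. abcg2a, abcg1 and abcg2d slope upwards towards SP and abcg2c downwards, and the open triangle marks the library in which abcg4a had 0 counts, drawn at the floor of 3 counts.

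The other abcg2 paralogues did not follow abcg2a in one way. abcg2c had levels of 3.26, 1.91 and 2.32 CPM in SP and 5.61, 2.37 and 3.22 CPM in nonSP. It was lower in SP in every tumour, but the ranges of the fractions overlapped. Its log2 fold change was -0.53 ± 0.42 (SE, n = 3, edgeR adjusted p = 0.381), and it turned to 0.54 with library totals (edgeR adjusted p = 0.354), so its direction rests on the scaling. abcg2d stood at 0.845, 2.30 and 2.31 CPM in SP and 0.775, 0.733 and 0.265 CPM in nonSP. The fractions did not overlap, but tumour 1404 had nearly equal levels in both. The share of all tested genes without such an overlap is not given here. The log2 fold change of abcg2d was 1.59 ± 0.59 (SE, n = 3, edgeR adjusted p = 0.0526), just above the threshold of 0.05. It was 2.28 and passed without tumour 1404 (edgeR adjusted p = 0.00345), and was 0.86 without tumour 1314 (edgeR adjusted p = 0.469). abcg2b had too few counts for a test, with 20, 7 and 2 in SP beside 8, 1 and 3 in nonSP. The counts of abcg2b were above nonSP in 2 tumours and below in 1, and every counting interval of its TMM-scaled ratio included 1.

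The genes of sterol export were present at low level. abcg1 stood at 1.63, 0.817 and 0.616 CPM in SP and 0.916, 0.282 and 0.110 CPM in nonSP. It was higher in SP in each tumour, in the same order of tumours as abcg2a, and the nonSP library of tumour 1404 overlapped the SP range. Its log2 fold change of 1.51 ± 0.60 (SE, n = 3) did not pass (edgeR adjusted p = 0.068), and it passed with library totals (2.56, edgeR adjusted p = 0.000424). abcg4a had 24, 11 and 17 counts in SP beside 1, 1 and 0 in nonSP, or 0.356, 0.170 and 0.177 CPM against 0.0235, 0.0564 and 0 CPM, with a floor of 3 counts at 0.0662 CPM in the last library. The fractions did not overlap, on 54 counts in all, but abcg4a met the filter on low counts through its SP libraries only. This separation and the call of abcg4a therefore carry no weight of their own. The edgeR call of abcg4a (adjusted p = 0.0312) came with a fitted log2 fold change of 3.47 ± 1.14 that depends on the fit's prior count. The ratio was 15.1 in tumour 1404 (95% counting interval 2.47 to 623) and 3.01 in tumour 1279 (0.437 to 129), each on 1 nonSP count. In tumour 1314 SP was 2.68-fold higher when the nonSP library was set to the floor of 3 counts, without counting error. The 95% counting interval of 17 against 0 counts began lower, at 1.95. The call ended without tumour 1404 (3.10, edgeR adjusted p = 0.171), without tumour 1314 (2.91, edgeR adjusted p = 0.148) and in DESeq2 (adjusted p = 0.0693). abcg4b had 11, 7 and 5 counts in SP beside 8, 5 and 3 in nonSP. These are close counts on libraries that TMM scaling sets to unlike sizes. With TMM scaling abcg4b was lower in SP in each tumour, with ratios of 0.868, 0.383 and 0.788. With library totals the ratios were 1.53, 0.938 and 1.695. Each interval of the ratio of abcg4b included 1. The remaining ABCG genes, abcg5 and abcg8, whose products pair in mammals, had 7, 5 and 1 and then 0, 0 and 1 counts in SP and 0 in each nonSP library. abcg8 stayed under the floor of 3 counts in every library, and abcg5 stayed under it in SP of tumour 1314 and in nonSP.

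Within each tumour the SP to nonSP ratio was set against its counting error. For abcg2a the ratio was 2.72 (2.39 to 3.10) in tumour 1404, 3.29 (2.5 to 4.40) in tumour 1279 and 5.77 (4.31 to 7.89) in tumour 1314. The interval of tumour 1314 lay above that of tumour 1404, but with 1 library per fraction of a tumour the spread between libraries of one fraction is not measured. For abcg2d the ratio was 1.09 (0.698 to 1.73), 3.13 (1.78 to 6.02) and 8.71 (4.89 to 17.1). This was the widest spread among the members with intervals on both sides, and the interval of tumour 1404 included 1. For abcg1 the ratio was 1.78 (1.23 to 2.63), 2.90 (1.17 to 9.29) and 5.58 (2.26 to 17.8), with wide intervals on 5 nonSP counts in tumours 1279 and 1314. For abcg2a, abcg2d and abcg1 alike the ratio was lowest in tumour 1404 and highest in tumour 1314. For abcg2c the ratio was 0.581 (0.481 to 0.701), 0.807 (0.564 to 1.17) and 0.719 (0.581 to 0.892), and with library totals 1.03, 1.98 and 1.55. With library totals the ratios of abcg2a became 4.81, 8.06 and 12.4. Intervals and floors cover counting error only, since the reads are not known to be independent molecules.

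**Figure D2:**
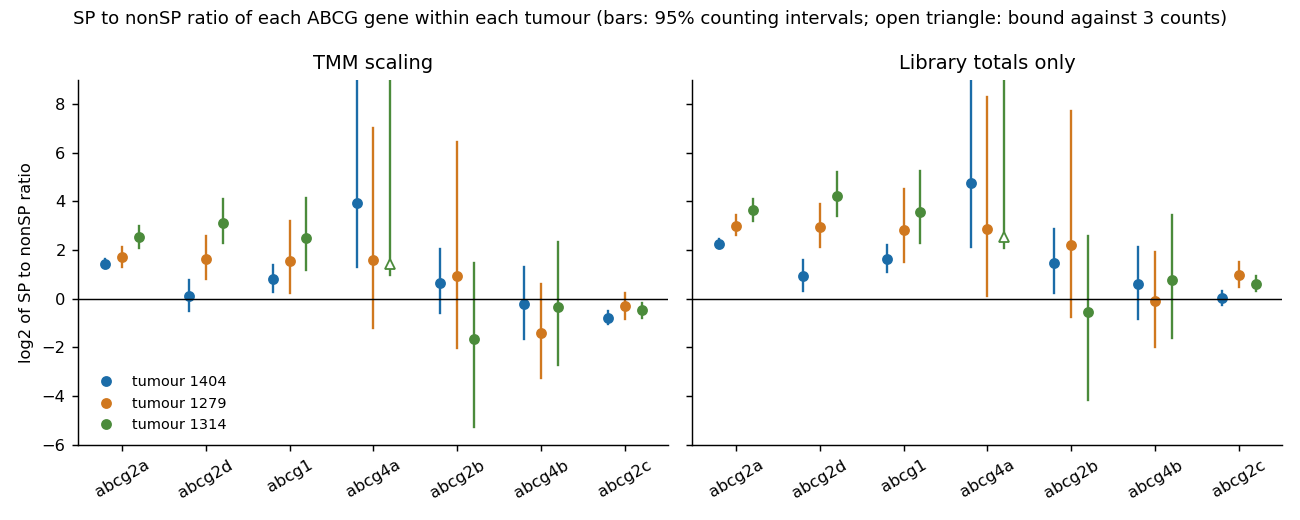
Log2 of the SP to nonSP ratio of each ABCG gene within each tumour, with TMM scaling (left) and library totals only (right). Bars are 95% counting intervals, and those that pass the upper edge are cut there. The open triangle is a bound against 3 counts that leaves out counting error. All 3 ratios of abcg2a lie above 0 in both panels, while those of abcg2c lie below 0 at left and above 0 at right.

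How the ABCG counts were divided among the genes does not depend on scaling. Among the counts of the 7 genes, abcg2a made up 74.0%, 65.8% and 53.2% in SP but 47.1%, 45.5% and 22.5% in nonSP. The share was higher in SP in 3 of 3 tumours, and the exact (Clopper-Pearson) 95% intervals of the fractions of a tumour did not meet, the closest being 62.8% to 68.7% and 36.5% to 54.8% in tumour 1279. The share of abcg2c moved the other way, from 38.5%, 34.1% and 67.0% in nonSP to 12.9%, 12.1% and 19.8% in SP. In nonSP of tumour 1314 it was the largest share of the family. The share of abcg2d was 3.35%, 14.5% and 19.7% in SP beside 5.32%, 10.6% and 5.50% in nonSP. These are shares of counts, with no correction for transcript length, so they compare libraries and not the levels of the genes with each other. The shares of a library sum to a fixed whole, so a larger share of abcg2a lowers those of the others. The lower share of abcg2c in SP therefore does not show a lower level of that gene. In all, the 7 genes held 1701, 1025 and 1124 counts in the SP libraries, and in the nonSP libraries 620, 123 and 218. These raw sums come from libraries of unlike size. Scaled by TMM they were 25.2, 15.8 and 11.7 CPM in SP and 14.6, 6.94 and 4.81 CPM in nonSP.

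**Figure D3:**
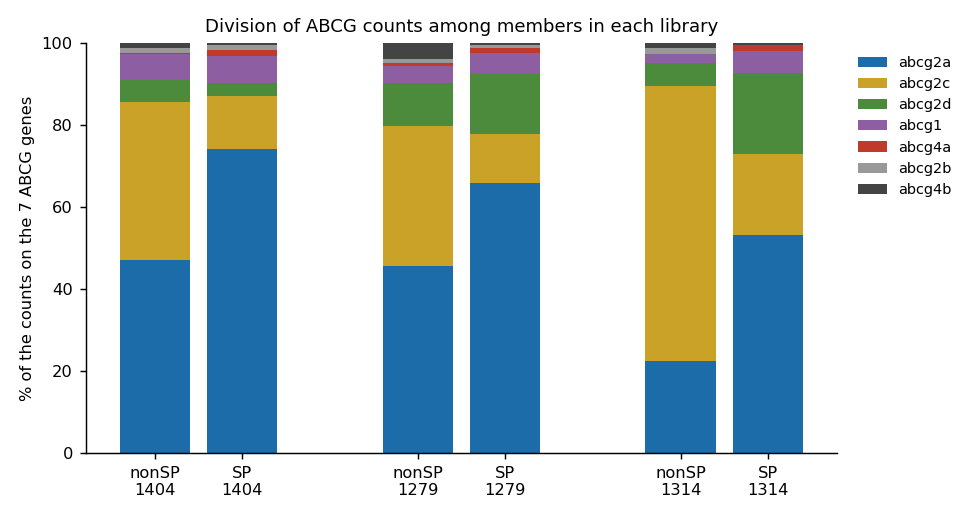
Percentage of the counts on the 7 ABCG genes that fell on each gene, 1 bar per library, paired by tumour. The share of abcg2a (blue) rises and that of abcg2c (yellow) falls from nonSP to SP in each tumour, and abcg2d (green) reaches 19.7% in SP of tumour 1314.

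Ratios of abcg2a counts to those of other members, taken within a library, differed by partner. Per count of abcg2c there were 5.72, 5.43 and 2.69 counts of abcg2a in SP and 1.22, 1.33 and 0.336 in nonSP. On the log2 scale (pseudocount 0.5) this ratio was higher in SP by 2.23, 2.03 and 2.99, a mean of 2.42 ± 0.51 (SD, n = 3). Per count of abcg1 there were 11.4, 12.7 and 10.1 counts of abcg2a in SP and 7.49, 11.2 and 9.80 in nonSP. That ratio was also higher in SP in each tumour, with smaller log2 differences of 0.62, 0.30 and 0.16. The ratio of abcg2a to abcg2d had log2 differences of 1.33, 0.11 and -0.55, in no common direction. All 10 pairs of tested members were compared by an exact sign-flip permutation test over the tumours, two-sided, in which 3 pairs cannot give a p below 0.25. The difference went the same way in 3 of 3 tumours for abcg2a against abcg2c and abcg1. It also did for abcg2c against abcg2d, abcg1 and abcg4a. For each of these pairs the exact sign-flip p was 0.25 (0.5 after Benjamini-Hochberg adjustment over the 10 pairs). abcg4a met the filter on low counts through its SP libraries only, and its nonSP counts were 1, 1 and 0. The pairs with abcg4a therefore carry no weight of their own.

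The call of abcg2a held in each fit with tumour as a block except that with a 2-fold minimum (edgeR adjusted p = 0.0746). Over other tools, scalings and filters, library totals aside, its log2 fold change ranged from 1.80 to 1.95, and it was 1.58 to 2.01 with a tumour left out (edgeR adjusted p between 0.000914 and 0.0239). With library totals it was 2.95. abcg2d passed with limma voom (1.81, adjusted p = 0.0193), with no filter (1.66, edgeR adjusted p = 0.0312) and with library totals (2.67, edgeR adjusted p = 7.45e-05). abcg1 passed in the fit with library totals only, among those run at an adjusted p of 0.05. The share of all tested genes called higher, against which these calls stand, was 12.7% with DESeq2, 14.2% with limma voom, 10.8% with RLE factors, 11.6% with upper-quartile factors and 12.8% with TMM factors set without ribosomal and mitochondrial genes. It was 10.1% with no filter, 17.2% with the stricter filter, 12.3% in thinned libraries, 18.2% at an adjusted p of 0.1 and 2.43% with the 2-fold minimum. Without tumours 1404, 1279 and 1314 in turn it was 7.85%, 8.37% and 7.0%, and without the block it was 0 in edgeR and limma voom and 0.114% in DESeq2.

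**Figure D4:**
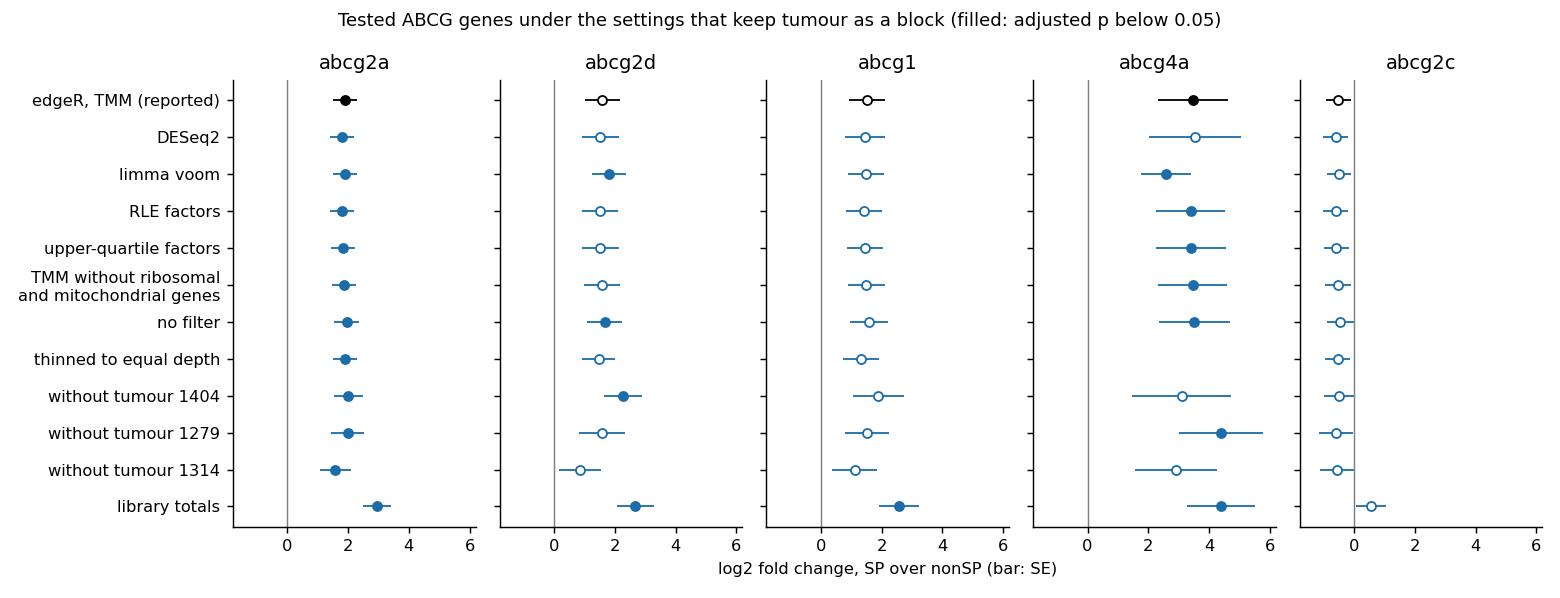
Log2 fold change (SP over nonSP, bar: SE) of the 5 tested ABCG genes in 12 fits that keep tumour as a block; filled points have an adjusted p below 0.05, and a missing point means that the gene was filtered out. abcg2a is filled in each fit, and abcg2c crosses 0 with library totals only.

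The genes whose log2 CPM over the 6 libraries was most like that of each member were taken from 5452 genes of higher level (average log2 CPM of at least 3). The libraries form 3 pairs that share a tumour, so Pearson's r is given as a description, and since likeness to a member fixes how such a gene stands between the fractions, no test of that difference is given. For abcg2a they were ddhd1b, a phospholipase gene (r = 0.99), mknk2b, a kinase gene downstream of MAP kinases (0.99), and saa, the acute-phase protein serum amyloid A (0.99). saa stood at 43.9, 19.8 and 10.2 CPM in SP beside 20.3, 5.30 and 1.17 CPM in nonSP. The tumours had the same order as for abcg2a, and the fractions overlapped. mknk2b had the same order at a higher level, with 3903, 2507 and 1334 CPM beside 1279, 942 and 378 CPM. saa was also among those of abcg1 (0.99), whose own r with abcg2a was 0.98, as were mt-atp8 and mgat4a. For abcg4a they were jag1a, a Notch ligand gene (r = 0.999), myo1ha, galnt2 and nfatc4. The nonSP values of abcg4a rest on 1, 1 and 0 counts and so on the prior count added before the logarithm, and the r of these genes rests on them too. For abcg2d they were btbd9, hnrnpa0a, ibtk and pet100, and for abcg2c atp6v1e1a, a subunit of the vacuolar proton pump, rfxap, hmbsa and map2k2a. atp6v1e1a stood at 11.7, 2.51 and 4.12 CPM in SP and was higher in nonSP in each tumour, at 41.7, 5.19 and 12.9 CPM.

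Genes that act on the same substrates were read against the share of all tested genes. Of 20 tested genes of sterol export and sensing, 3 rose and 1 fell. That is 15% higher and 20.0% called in either direction, beside 13.0% and 22.4% of all tested genes, with a median log2 fold change of 0.74 beside 0.09. abca1a, the pump that loads cholesterol onto apolipoprotein A-I, stood at 351, 432 and 23.1 CPM in SP, above 100.5, 285 and 8.10 CPM in nonSP (1.31 ± 0.38, edgeR adjusted p = 0.0174). apoa1b, a gene of that acceptor, rose by 2.43 ± 0.49 (edgeR adjusted p = 0.00138) and lpcat3, a phospholipid remodelling enzyme, by 1.25 ± 0.41. npc2, which carries cholesterol out of lysosomes, fell from 80.9, 75.1 and 62.4 CPM to 23.5, 20.4 and 15.4 CPM (-1.89 ± 0.38, edgeR adjusted p = 0.00115), a call that ended with library totals (-0.82). Of 27 tested genes of sterol synthesis and uptake, 6 rose and 0 fell (22.2% higher, beside 13.0%), with a median of 0.71, and the count was 2 higher and 1 lower without tumour 1404 and 2 and 0 without tumour 1314, where 7.85% and 7.0% of all tested genes were higher. Among these were hmgcrb, of the rate-limiting step (1.34 ± 0.38), scap, a sterol sensor gene (1.29 ± 0.39), hsd17b7 (2.2 ± 0.59) and the LDL receptor gene ldlra (2.51 ± 0.77). ldlra stood at 0.979, 0.663 and 0.271 CPM in SP and 0.0705, 0.113 and 0.110 CPM in nonSP. It met the filter on low counts through its SP libraries only, so its place in the count of 6 carries no weight of its own. hsd17b7, at 0.258, 0.733 and 0.0883 CPM in nonSP, met that filter mainly through its SP libraries. Without tumour 1404, abca1a (0.93, edgeR adjusted p = 0.0606), lpcat3 (0.65, 0.301), hsd17b7 (1.56, 0.116) and ldlra (1.71, 0.205) did not pass, nor without tumour 1314 abca1a (1.21, 0.135), hmgcrb (1.15, 0.139) and scap (0.84, 0.283), nor without tumour 1279 lpcat3 (1.45, 0.0727) and ldlra (2.52, 0.0681). The export list had 1 higher and 1 lower gene without tumour 1404. With library totals, where 50.8% of all tested genes were higher and 1.76% lower, the export list had 13 higher and 0 lower genes and the synthesis list 22 and 0.

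Porphyrins are substrates of mammalian ABCG2, and of 29 tested genes of haem and porphyrin handling 4 rose and 0 fell (median 0.28). That is 13.8% higher, beside 13.0% of all tested genes. They were abcb6a, a porphyrin transporter gene (1.85 ± 0.48, edgeR adjusted p = 0.00799), slc25a37, the iron importer of mitochondria (1.5 ± 0.43, edgeR adjusted p = 0.0155), hmox2b, a haem oxygenase gene (1.45 ± 0.47), and abcb10, of the mitochondrial inner membrane (1.43 ± 0.47). All 4 calls ended without tumour 1404 (log2 fold changes of 1.02, 0.71, 1.17 and 0.61, edgeR adjusted p = 0.0983, 0.188, 0.104 and 0.405), and that of hmox2b also without tumour 1279 (1.79, edgeR adjusted p = 0.0556) and tumour 1314 (1.3, edgeR adjusted p = 0.173). Without tumour 1404 the list had 0 higher and 1 lower gene. With library totals 17 of the 29 were higher and 0 lower, beside 50.8% and 1.76% of all tested genes. Of 25 tested genes that are known as regulators of ABCG2 in mammals or as their partners, 11 rose and 0 fell. That is 44.0% higher, beside 13.0% of all tested genes, with a median of 1.17. Like the other lists, this list was chosen with earlier results of these data known, so the shares are no independent comparison. Of the 11, epas1b had 0 CPM in both libraries of tumour 1314 (edgeR adjusted p = 0.0489). Its call ended with DESeq2, RLE factors or upper-quartile factors. The call of hif1aa ended without tumour 1279 or 1314. keap1a, a gene of the repressor of the oxidative stress factor Nrf2, stood at 8.61, 0.725 and 5.23 CPM in SP, above 1.17, 0.169 and 0.750 CPM in nonSP (2.70 ± 0.49, edgeR adjusted p = 0.000595). Its paralogue keap1b had more counts and did not rise. keap1b stood at 26.3, 23.9 and 20.75 CPM in SP beside 24.4, 38.1 and 37.9 CPM in nonSP (-0.48 ± 0.37, edgeR adjusted p = 0.365). nfe2l2a, a gene of Nrf2 itself, stood at 143, 62.7 and 34.4 CPM in SP, above 11.5, 31.3 and 13.6 CPM (1.95 ± 0.47, edgeR adjusted p = 0.00506). Without tumour 1404 its log2 fold change was 1.06 (edgeR adjusted p = 0.0342). hif1ab, of the hypoxia-inducible factors, rose by 1.63 ± 0.40 (edgeR adjusted p = 0.00555) and the oestrogen receptor gene esr2a by 1.46 ± 0.38, the latter not without tumour 1314 (1.36, edgeR adjusted p = 0.0658). The regulator list had 6 higher and 2 lower genes without tumour 1404, where 7.85% of all tested genes were higher and 10.6% lower, 4 and 0 without tumour 1314 (7.0% and 4.34%), and 21 and 0 with library totals (50.8% and 1.76%).

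Among the 28 tested genes of the other ABC transporters, 7 rose and 2 fell (32.1%, beside 22.4% of all tested genes), with a median of 0.37. Of the 7, abca1a was counted above in the sterol export list and abcb6a and abcb10 in the haem list. The largest rise of these was that of abca4b, related to a retinoid transporter of the mammalian retina, from 0.470, 1.18 and 0.419 CPM to 8.06, 5.44 and 6.18 CPM (3.40 ± 0.50, edgeR adjusted p = 5.65e-05). abcb11b, related to the mammalian bile salt export pump, rose by 2.92 ± 0.66 (edgeR adjusted p = 0.00327), and missed the threshold without tumour 1404 (1.92, edgeR adjusted p = 0.0545). At 0.258, 0.733 and 0.0662 CPM in nonSP, abcb11b met the filter on low counts mainly through its SP libraries. The multidrug pump gene abcc1 and the lysosomal transporter gene abcb9 had log2 fold changes of 2.1 ± 0.43 and -1.79 ± 0.37 (edgeR adjusted p = 0.00149 and 0.00178), and abcb9 did not pass with library totals (-0.72). Without tumour 1404 this list had 2 higher and 3 lower genes of 27 tested, beside 7.85% and 10.6% of all tested genes, and with library totals 15 and 0 of 28, beside 50.8% and 1.76%.

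**Figure D5:**
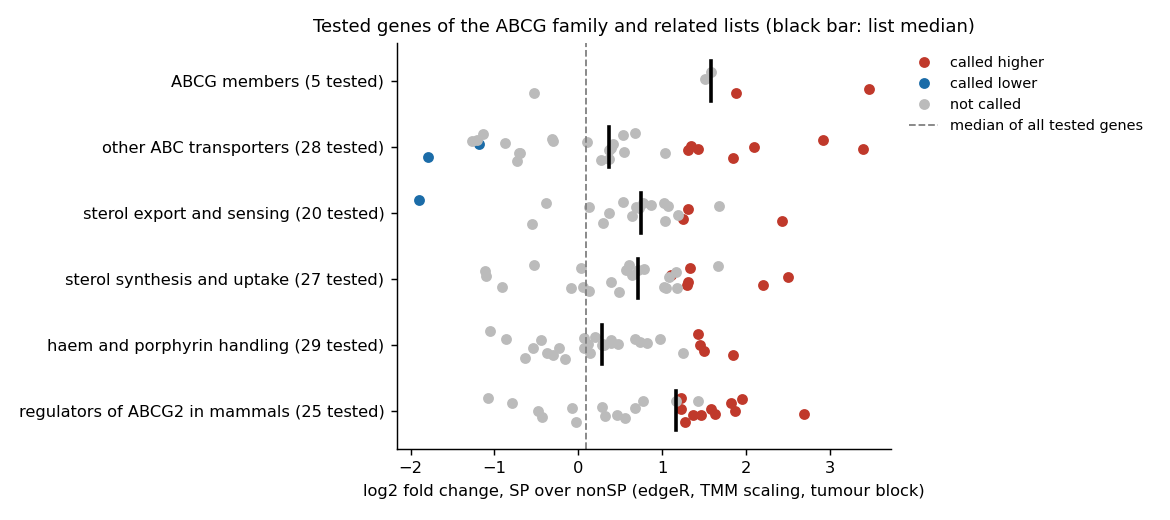
Log2 fold change (SP over nonSP) of each tested gene of the ABCG family and of 5 related lists, 1 point per gene, red if called higher, blue if called lower and grey if not called; black bars are list medians and the dashed line is the median of all tested genes (0.09). Calls to the right of 0 outnumber those to the left in each list, as they do over all tested genes (2047 and 1483). Without tumour 1404 this did not hold for sterol export, haem handling and the other ABC transporters. In the fit shown, 2 genes of the other ABC transporters and 1 of sterol export (npc2) were called lower.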

How the data were processed

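The authors deposited raw counts per gene symbol, 1 table per library. The submitters' processing notes name edgeR 3.20.7, DESeq 1.30.0, featureCounts 1.28.1, Cufflinks 2.2.1 and STAR 2.5.1b, and GRCz10 as build. What each tool was used for, the gene models and whether reads were counted by strand is not stated there. Without strand, reads of overlapping genes cannot be told apart, and reads shared by similar paralogues may be split.

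Members and lists were chosen with earlier results of these data known. Groups and tumour numbers came from the sample titles. The fractions of a tumour share its number by the design text. Across genes, their deviations from the mean of the fraction had correlations of 0.753 to 0.839 within tumours, so tumour was a block. The correlations between tumours were -0.485 to -0.274. Deviations from a mean of 3 libraries sum to 0, so positive values within tumours push those between tumours below 0. The negative values therefore add nothing of their own. All pairs of libraries differed beyond sampling noise (chi-square at least 300.1 per degree of freedom). Whether the tumours arose independently is not stated, so p-values speak for these 3 pairs only. Like the SE described below, they rest mostly on the spread shared by all genes.

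The test was run in edgeR 4.0.16 under R 4.3.3 (filterByExpr, minimum count 10 and minimum total 15, TMM, glmQLFit robust, glmQLFTest), with p-values adjusted over all tested genes at 0.05. The SE is the log2 fold change divided by the square root of F and rests mostly on the spread shared by all genes (23.2 prior degrees of freedom). Tested genes held at least 99.81% of each library. Alternatives used DESeq2 1.42.0 and limma 3.58.1. The scripts were tested on simulated data. Counting intervals are exact, at 95%. Named genes were all ABCG members, up to 4 genes with the lowest p of each related list, and the 4 genes most like each tested member, of which 1 is not reported here.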

Additional observations from a re-analysis of the deposited data

How the results depend on the processing

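The p-values rest on pairing the fractions of a tumour. With no replicate block, edgeR called 0 genes higher and 0 lower (1251 at an unadjusted p below 0.05) and 0 ABCG genes, limma voom called 0, 0 and 0 (1554 at an unadjusted p below 0.05), and DESeq2 called 18, 29 and 0. In those 3 fits each tested member kept its direction. Library totals gave 8015 higher and 277 lower genes and 4 ABCG genes higher, and turned abcg2c to 0.54. This is the sole reversal among the members and settings run. The stricter filter gave 1048 and 904 genes and 1 ABCG gene, abcg2a, since the others were filtered out. A 2-fold minimum gave 383 and 247 genes and 0 ABCG genes, and an adjusted p of 0.1 gave 4 ABCG genes higher, abcg2d and abcg1 being added. DESeq2 with the block and libraries thinned to the lowest total gave 1 ABCG gene each (abcg4a was filtered out of the thinned libraries). Leaving out a tumour gave 1141 to 1396 higher and 667 to 1685 lower genes, and 1 to 2 ABCG genes higher: abcg2a and abcg2d without tumour 1404, abcg2a and abcg4a without tumour 1279, and abcg2a without tumour 1314. The number of ABCG genes called lower was 0 in all settings. Of 10 group means of log2 CPM, 9 moved by less than their SD with a prior count of 0.5, and that of abcg4a in nonSP moved from -4.10 to -5.23. Of the 31 genes called in the related lists, whose alternatives were added after the data were seen, 13 kept their call without tumour 1404, 23 without tumour 1279 and 17 without tumour 1314. Depth limits abcg2b, abcg4a, abcg4b, abcg5 and abcg8, each with 54 counts or fewer in all. The causes of these changes were not tested.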

Other observations

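All 7 ABCG genes matched a symbol in a RefSeq gene table of a later assembly (GRCz12tu), which was used for names and neighbours only. In that table abcg1 overlaps the coding gene brwd1, abcg2c overlaps meis1b and abcg2b overlaps hapstr1b. brwd1, a chromatin reader gene, had 1373, 2795 and 3206 counts in SP beside 1199, 1168 and 773 in nonSP, and its log2 fold change was -0.05 ± 0.40 (edgeR adjusted p = 0.949). meis1b, a homeobox gene of blood stem cells, had 112, 1 and 1 counts in SP beside 13, 0 and 1 in nonSP, so the abcg2c counts of tumours 1279 and 1314 (124 and 222 in SP) stand beside almost no counts on meis1b. Whether the gene models behind the counts overlap in the same way is not stated.

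Of the nearest protein-coding neighbours in that table, 5 beside the 7 members were tested. slc29a3, a lysosomal nucleoside transporter gene next to abcg2c, rose (1.5 ± 0.45, edgeR adjusted p = 0.0197) but did not pass without tumour 1279 (1.65, edgeR adjusted p = 0.067) or tumour 1314 (1.16, edgeR adjusted p = 0.226). mxf, an Mx family gene next to abcg1, rose by 2.60 ± 0.78 (edgeR adjusted p = 0.0201) and did not pass without tumour 1404 (2.37, edgeR adjusted p = 0.127) or tumour 1314 (2.70, edgeR adjusted p = 0.0685). psap, nlrx1 and hmbsb were not called. These neighbours were chosen after values were seen.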
